A study of Mus musculus with 8 samples.

Results

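The 8 genes described here, Acp5, Ctsk, Car2, Calcr, Clcn7, Ostm1, Snx10 and Plekhm1, encode proteins that osteoclasts use to dissolve bone. They were chosen by name and read from the rows of the deposited FPKM table that carry these symbols, 8 of 25124 genes. RNA-seq was run on bulk RNA from osteoclast precursor (OCP) cells, the adherent macrophages grown from mouse bone marrow for 3 days in 30 ng/mL M-CSF, the growth factor that keeps this lineage alive. The 4 groups of 2 libraries were then cultured for 48 h and are named no PRDX1 + no RANKL, PRDX1 + no RANKL, no PRDX1 + RANKL and PRDX1 + RANKL. RANKL, the cytokine that turns these precursors into osteoclasts, was given at 100 ng/mL, and PRDX1, the antioxidant enzyme peroxiredoxin 1 added from outside the cells, at 200 nM. The PRDX1 was a His-tagged protein made in E. coli and passed over an endotoxin-removing resin. The labels give the mice as C57BL/6 aged 6 to 8 weeks, whereas the culture methods of the study name male ICR mice. The control label names M-CSF, and no group carried a genetic change. Nothing says that replicates came from separate mice or cultures, so the p-values measure only the spread between these samples, which may be technical.

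An osteoclast seals itself to bone and turns the facing membrane into a ruffled border by fusing lysosomes with it. Protons and chloride cross that border to dissolve mineral, and enzymes released with them digest the collagen that is laid bare. Inherited loss of CLCN7, OSTM1, SNX10, PLEKHM1 or CA2 gives dense, unresorbed bone in people, and loss of cathepsin K gives pycnodysostosis. Several of the same proteins serve the lysosomes of other cells, macrophages included.

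Sequences upstream of the start are shown for 4 members that stand for the patterns below, Acp5 and Ctsk for large changes, Clcn7 for a small one and Ostm1 for a level that hardly moved. They come from RefSeq windows of GRCm38.p6, the assembly of mm10, and run 5′ to 3′ on the strand of the gene. Each ends directly before the exon that begins at its start, except that of Acp5. There 240 of 250 bases are shown, because an annotated exon reaches into the window, and positions still count from the start. Capitals mark matches to the searched letters described after them.
Ctsk, chr3:95498960-95499209, plus strand: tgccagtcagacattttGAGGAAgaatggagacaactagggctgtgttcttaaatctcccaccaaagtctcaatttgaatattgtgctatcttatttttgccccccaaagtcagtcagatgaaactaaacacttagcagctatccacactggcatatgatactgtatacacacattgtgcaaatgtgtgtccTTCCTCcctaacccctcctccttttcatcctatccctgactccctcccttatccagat
Acp5, chr9:22130609-22130848, minus strand: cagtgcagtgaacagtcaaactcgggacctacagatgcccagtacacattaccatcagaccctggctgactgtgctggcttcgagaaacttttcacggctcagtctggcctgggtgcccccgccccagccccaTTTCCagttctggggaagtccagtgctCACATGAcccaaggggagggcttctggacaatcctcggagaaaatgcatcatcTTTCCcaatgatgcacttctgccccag
Clcn7, chr17:25133141-25133390, plus strand: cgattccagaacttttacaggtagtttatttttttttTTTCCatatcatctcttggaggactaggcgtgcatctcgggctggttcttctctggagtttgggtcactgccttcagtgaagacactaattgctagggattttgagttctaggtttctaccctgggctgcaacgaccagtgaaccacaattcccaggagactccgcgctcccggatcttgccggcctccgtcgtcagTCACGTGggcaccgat
Ostm1, chr10:42678666-42678915, plus strand: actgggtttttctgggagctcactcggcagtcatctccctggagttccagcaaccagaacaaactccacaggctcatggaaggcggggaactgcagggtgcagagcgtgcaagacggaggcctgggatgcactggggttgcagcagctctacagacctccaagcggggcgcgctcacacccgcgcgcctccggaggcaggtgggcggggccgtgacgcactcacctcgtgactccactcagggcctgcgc
The Clcn7 stretch lies before an upstream start of the gene and not before the start of the transcript in the table. The other stretches lie before the start of the transcript in the table, and Acp5 and Ostm1 have further annotated starts upstream of it. The letters searched on both strands were GGAAA (the core bound by NFAT factors), GAGGAA (PU.1), TCATGTG (the M-box of MITF), CACGTG and TCACGTG (E-boxes of the MITF and TFE family, the longer containing the shorter), TGANTCA (AP-1) and TATAAA. The Acp5 stretch held TTTCC, the reverse complement of the NFAT core, at -117 to -113 and at -37 to -33 from the start, and CACATGA, the reverse complement of the M-box, at -90 to -84. The Ctsk stretch held the PU.1 letters at -233 to -228 and, reversed, at -58 to -53. The Clcn7 stretch held TCACGTG at -16 to -10 and the reversed NFAT core at -213 to -209. The window before the start of the Clcn7 transcript in the table, not shown, held only an M-box, at -42 to -36. The Ostm1 stretch held none of the searched letters. Of 32851 windows of 250 bases, 55.6% held the NFAT core, 23.3% the PU.1 letters, 3.25% the M-box, 6.02% CACGTG, 3.13% TCACGTG, 6.75% the AP-1 letters and 12.4% TATAAA. Such a match is a description of letters and not of binding. Windows were given for 7 of the 8 members, without Car2. Among members not shown, the Plekhm1 window and the Calcr window before the start of the transcript in the table held none of the letters. The Calcr window before an upstream start held the NFAT core. The Snx10 windows, all before upstream starts, held NFAT, PU.1 and AP-1 letters.

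The libraries held 24542566 to 41710777 reads on genes, and the 10 most abundant genes took 4.75% to 9.69% of them. No library stood apart from the other of its group on the first principal component, which held 69.3% of the variance. The cells carried the macrophage genes that the labels imply, with summed FPKM of the 6 macrophage markers (Csf1r, Adgre1, Cd68, Mertk, Fcgr1 and Lyz2) of 14998 to 16725 in the control group, 15867 to 16308 with PRDX1, 9504 to 9935 with RANKL and 12843 to 13241 with both. Lyz2 made up most of each sum, with mean FPKM of 14117, 14048, 8597 and 11576 in that order, and the Fc receptor gene Fcgr1 varied more, at 113, 162, 8.49 and 51.3. RANKL without PRDX1 lowered 5 of the 6, and PRDX1 with RANKL raised 3 (Fcgr1, Mertk and Adgre1). The sum over 8 other osteoclast genes (Nfatc1, Dcstamp, Ocstamp, Oscar, Atp6v0d2, Itgb3, Mmp9 and Siglec15) was 20.6 to 22.5, 34.5 to 38.9, 654 to 695 and 85.6 to 85.9 in the same order. With PRDX1 alone, Atp6v0d2 (6.99 to 22.8 FPKM) and Dcstamp (1.63 to 3.96) were called higher and Itgb3 (1.88 to 0.662) lower, so Atp6v0d2 carried most of that higher sum. In bulk RNA, fewer osteoclasts in a culture and less of each RNA per osteoclast cannot be told apart. Markers of neutrophils, stromal cells, B cells and dendritic cells were low but had higher sums with PRDX1 than without it at the same RANKL dose. The 7 neutrophil markers summed to 8.14 to 12.2 and 16.1 to 16.4 FPKM without PRDX1 (without and with RANKL) and to 38.6 to 43.1 and 33.8 to 37.3 with it. The 7 stromal and osteoblast markers summed to 7.61 to 10.1 and 7.71 to 9.39 without it and to 15.7 to 16.2 and 14.8 to 18.2 with it, with the osteoblast genes Bglap, Sp7 and Alpl at or below a mean of 0.0585 FPKM in every group. The part of these markers in the PRDX1 results below was not tested. Sums of the T cell, mast cell and erythroid markers stayed at or below 0.315 FPKM. The 4 B cell markers reached at most 2.08 and the 5 dendritic cell markers at most 5.49 FPKM, both in a library given PRDX1.

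**Figure D1:**
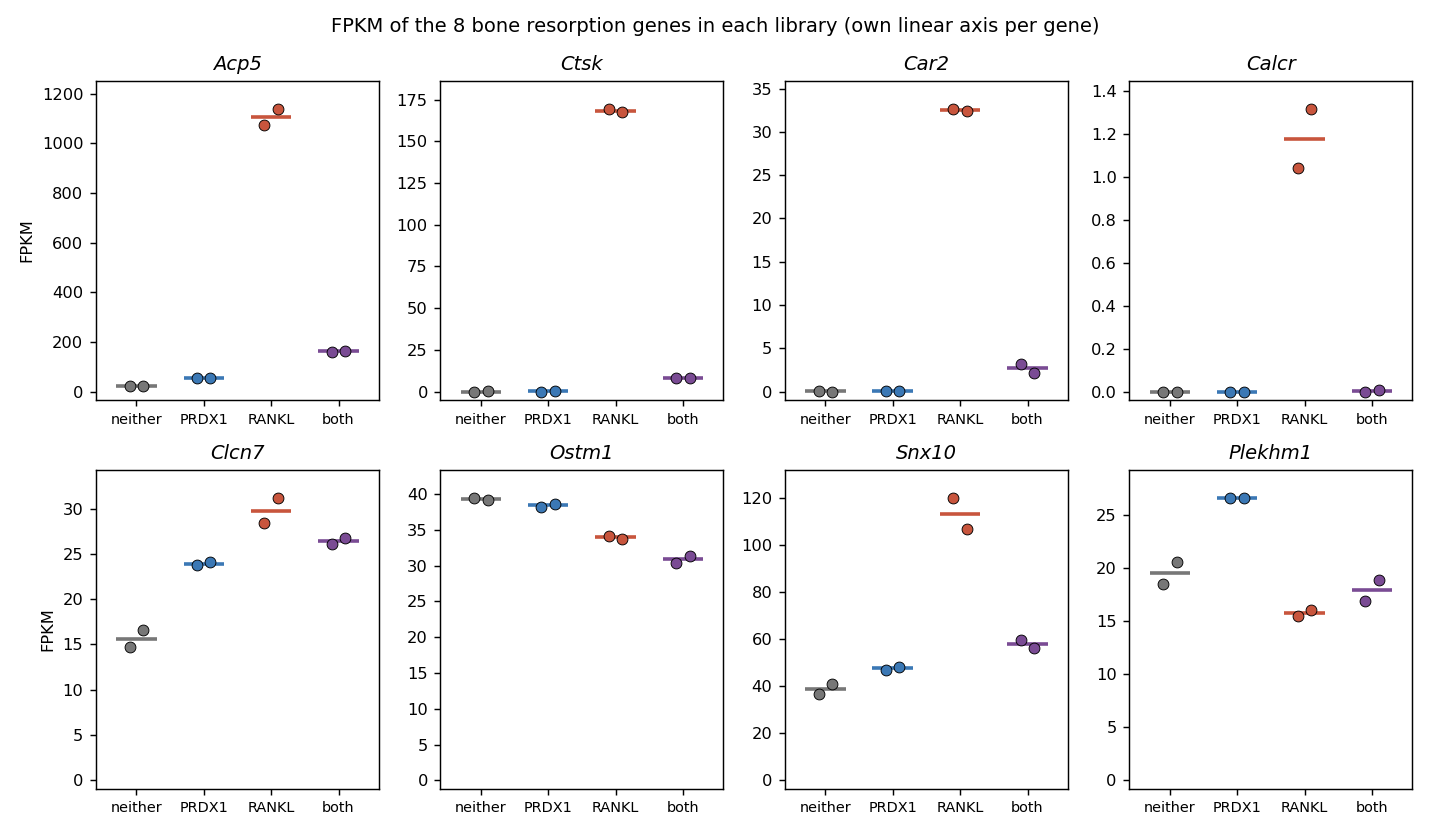
FPKM of each of the 8 genes (vertical axis, linear and separate for each gene) in the 2 libraries of each group (points), with the group mean as a bar; neither, PRDX1, RANKL and both stand for the 4 groups. Acp5, Ctsk, Car2, Calcr and Snx10 are highest with RANKL alone and lower with both proteins, whereas Clcn7 differs less between the groups with RANKL, Ostm1 moves little and Plekhm1 is highest with PRDX1 alone.

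RANKL raised Acp5, Ctsk, Car2 and Calcr many-fold, and these were far lower when PRDX1 was also present. Snx10 rose 2.92-fold and was at 51.0% of that with PRDX1, and the group means of Clcn7, Ostm1 and Plekhm1 stayed within a 2-fold range. Changes were tested with limma on log2(FPKM + 1) over 11700 genes with a mean of at least 0.5 FPKM, and a gene was called at a Benjamini-Hochberg adjusted p under 0.05 and a fold of at least 1.5 on that scale. With RANKL and no PRDX1, 5 of the 7 members tested were called higher and 0 lower, where 21.8% of all genes tested were called, 11.8% higher and 9.96% lower. With PRDX1 in both arms, RANKL gave 3 called higher and 0 lower, where 8.50% of all genes were called, 4.52% higher and 3.98% lower. PRDX1 in the presence of RANKL gave 4 called lower and 0 higher, where 10.2% of all genes were called, 6.03% higher and 4.17% lower. Without RANKL it gave 1 called higher and 0 lower, where 5.79% of all genes were called, 3.80% higher and 1.99% lower. Ctsk and Car2 passed the filter only through the groups given RANKL, so they had to differ between groups with and without RANKL. Of the other 5 members tested, 3 were called higher with RANKL alone (Acp5, Snx10 and Clcn7), 1 higher by RANKL with PRDX1 (Acp5) and 2 lower by PRDX1 with RANKL (Acp5 and Snx10). The median log2 change of the 7 was 1.52 for RANKL without PRDX1 (0.0957 over all genes tested) and -0.96 for PRDX1 with RANKL (-0.0571 over all), and for the 5 without Ctsk and Car2 it was 0.89 and -0.16. Calcr, with a mean of 0.295 FPKM, fell below the filter and was described by its reads. With 2 libraries against 2, the groups often do not overlap. This held for all 8 members by RANKL without PRDX1, 6 higher and 2 lower, where it held for 47.7% of the genes tested as higher and 30.2% as lower. For PRDX1 with RANKL it held for 1 member as higher and 7 as lower, beside 27.9% and 43.1%. PRDX1 without RANKL had 5 higher and 1 lower (26.1% and 39.7% of the genes tested), and RANKL with PRDX1 had 5 higher and 2 lower (47.3% and 27.0%). Both proteins against the control had 5 higher and 1 lower (41.6% and 33.0%). An exact permutation test of 2 libraries against 2 cannot go below a p of 0.333.

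Acp5 encodes tartrate-resistant acid phosphatase (TRAP), the secreted enzyme whose stain identifies osteoclasts. Its transcript in the table lies on chr9:22126727-22130598, minus strand, of mm10. Its FPKM was 24.2 and 23.1 in the control libraries, 53.9 and 53.5 with PRDX1, 1073 and 1137 with RANKL, and 158 and 166 with both. The groups did not overlap, and their order from control through PRDX1 and both proteins to RANKL alone had a gap beyond the replicate spread at each step. The mean of 1105 ± 45.2 FPKM (SD, n = 2) with RANKL placed Acp5 at rank 29 of all genes, compared with rank 3315 in the control, 1384 with PRDX1 and 387 with both. Acp5 then took 0.161% and 0.169% of the reads on genes in the 2 libraries given RANKL alone. RANKL raised it 46.7-fold without PRDX1 (44.3 to 49.3 over the 4 pairs of libraries) and 3.01-fold with PRDX1. In limma these were log2 changes of 5.49 ± 0.05 (SE, adjusted p = 1.70e-12) and 1.57 ± 0.05 (adjusted p = 1.65e-08). PRDX1 moved Acp5 in opposite directions in the absence and presence of RANKL. Without RANKL its level was 2.27-fold higher (2.21 to 2.33; log2 change 1.15 ± 0.05, limma adjusted p = 2.16e-07), the only member called in that comparison. With RANKL it was 6.83-fold lower (6.48 to 7.19; log2 change -2.76 ± 0.05, limma adjusted p = 1.39e-09), which left 14.6% of the level with RANKL alone. The difference between the PRDX1 effects was -3.91 ± 0.07 on the log2 scale (limma interaction term, adjusted p = 1.37e-09). An annotated transcript on the opposite strand, 6530413G14Rik, shares exon bases with Acp5, and reads were counted without regard to strand.

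Ctsk encodes cathepsin K, the cysteine protease that cuts the collagen of bone, and lies on chr3:95499210-95509387, plus strand. The control libraries held 2 and 8 reads of it (0.043 and 0.122 FPKM) and those with PRDX1 4 and 18 reads (0.081 and 0.324 FPKM), so these groups overlapped near the detection limit. With RANKL it reached 169 and 167 FPKM from 7260 and 9098 reads, and with both proteins 8.12 and 8.46 FPKM from 590 and 558 reads. Over the library pairs, RANKL without PRDX1 raised it 1372- to 3934-fold, a ratio that rests on 10 reads in the control. PRDX1 left 4.93% of the RANKL level, a 20.3-fold lower value (19.8 to 20.8 over the library pairs), which was the lowest share among the 7 members tested. The log2 change was -4.19 ± 0.10 (limma adjusted p = 4.08e-09). What remained was 40.9-fold above the level with PRDX1 alone (25.1 to 104 over the library pairs). On the log2(FPKM + 1) scale, where the pseudocount shrinks changes of low genes, that was 2.96 ± 0.10 (limma adjusted p = 2.39e-08), against 4.92 with a pseudocount of 0.1 and 5.54 by voom on the reads. PRDX1 alone gave 0.15 with a 95% confidence interval of -0.08 to 0.37 (limma adjusted p = 0.314), a difference not detectable at this depth. The value depended on the scale, at 0.64 with a pseudocount of 0.1 and 1.04 by voom, neither of which was called.

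Car2 encodes carbonic anhydrase II, which makes the protons that osteoclasts secrete, and lies on chr3:14886269-14900770, plus strand. It had 2 and 0 reads in the control libraries, 5 and 6 with PRDX1, 1512 and 1900 with RANKL, and 254 and 154 with both. In FPKM the last groups were 32.6 and 32.4 with RANKL against 3.24 and 2.16 with both, so PRDX1 left 8.31% of the level, 12.0-fold lower (9.99 to 15.1; log2 change -3.19 ± 0.13, limma adjusted p = 4.99e-08). From the 2 control reads, the rise by RANKL was a ratio of 1969.7 with a 95% counting interval of 545 to 16271. The 11 reads with PRDX1 alone gave a ratio of 5.89 to the control (1.29 to 54.7). On the log2(FPKM + 1) scale that was 0.11 with an interval of -0.18 to 0.39 (limma adjusted p = 0.583), and it was called at 0.74 with a pseudocount of 0.1 and at 2.61 by voom on the reads. Such intervals cover counting error only.

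Calcr encodes the receptor for calcitonin, the hormone that halts resorption, and lies on chr6:3685720-3763623, minus strand. Reads of it were found almost exclusively with RANKL alone, where the libraries held 98 and 157 (1.04 and 1.32 FPKM). The 4 libraries without RANKL held 0 reads, and those with both proteins 0 and 1. Against a floor of 3 reads over the 2 control libraries, RANKL raised Calcr at least 98.1-fold. With PRDX1 beside RANKL it was lower by a ratio of 363 (95% counting interval 64.6 to 14404). At this depth no effect of PRDX1 without RANKL could be seen.

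**Figure D2:**
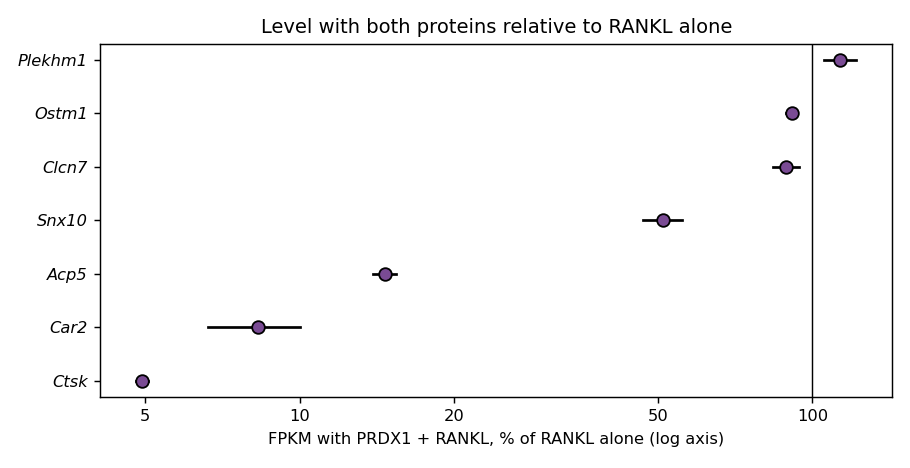
Mean FPKM with PRDX1 + RANKL as a percentage of that with RANKL alone (horizontal log axis), for the 7 members tested; lines span the 4 pairs of libraries. Ctsk, Car2 and Acp5 lie at 4.93%, 8.31% and 14.6%, Snx10 at 51.0%, and Clcn7, Ostm1 and Plekhm1 at 88.8%, 91.1% and 113%.

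Snx10, a sorting nexin that binds phosphoinositides on endosomes and is needed for the ruffled border, had the same order of groups as Acp5 over a smaller range. Its transcript lies on chr6:51545293-51590670, plus strand. Its FPKM was 36.8 and 40.7 in the control, 47.0 and 48.1 with PRDX1, 120 and 107 with RANKL, and 59.4 and 56.1 with both. RANKL alone raised it 2.92-fold (log2 change 1.52 ± 0.07, limma adjusted p = 3.92e-08), and PRDX1 left 51.0% of that level (log2 change -0.96 ± 0.07, limma adjusted p = 3.16e-06). Without RANKL, PRDX1 gave 0.29 on the log2 scale (95% confidence interval 0.14 to 0.45, limma adjusted p = 0.0106), short of the fold required. With PRDX1 in both arms, RANKL gave 0.27 (0.12 to 0.43, limma adjusted p = 0.0101), also short of it.

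Clcn7 is the chloride and proton exchanger of lysosomes and the ruffled border, and OSTM1 is the subunit that stabilises it. The transcripts in the table differed in pattern between the partners of this complex. Clcn7, on chr17:25136631-25162103, plus strand, had 14.7 and 16.6 FPKM in the control, 23.7 and 24.1 with PRDX1, 28.4 and 31.2 with RANKL, and 26.1 and 26.7 with both. All 3 treated groups lay above the control. RANKL alone raised it 1.90-fold (log2 change 0.89 ± 0.07, limma adjusted p = 2.39e-06), and both proteins together 1.69-fold (log2 change 0.72 ± 0.07, limma adjusted p = 2.02e-05). PRDX1 alone gave 1.53 times the control FPKM, but 0.58 on the log2(FPKM + 1) scale, just under the fold of 1.5 used there (limma adjusted p = 2.02e-04). It was called under 4 of the alternative settings in the closing section, and without no PRDX1 + no RANKL replicate 2 (0.67) or PRDX1 + no RANKL replicate 1 (0.60). PRDX1 with RANKL gave -0.16 (95% confidence interval -0.32 to -0.01, limma adjusted p = 0.0864), and RANKL with PRDX1 gave 0.14 (-0.02 to 0.29, limma adjusted p = 0.146). The interaction was -0.75 ± 0.10 (limma adjusted p = 4.97e-04).

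Ostm1, on chr10:42678916-42702462, plus strand, had 39.5 and 39.2 FPKM in the control, 38.2 and 38.6 with PRDX1, 34.2 and 33.7 with RANKL, and 30.4 and 31.4 with both. It was the only member with its highest mean in the control, and like Plekhm1 it was called in none of the comparisons. RANKL gave log2 values of -0.21 (limma adjusted p = 0.00414) without PRDX1 and -0.31 (limma adjusted p = 8.05e-04) with it, both short of the fold required. PRDX1 gave -0.03 without RANKL (95% confidence interval -0.14 to 0.08, limma adjusted p = 0.653) and -0.13 with RANKL (-0.24 to -0.02, limma adjusted p = 0.0526). The antisense gene Gm15200 shares exon bases with it, and strand was not used in counting.

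Plekhm1, an effector of the small GTPase RAB7 in the fusion of lysosomes, lies on chr11:103364275-103412705, minus strand. It was the only member whose highest level was with PRDX1 alone, at 26.64 and 26.63 FPKM. The control libraries had 18.5 and 20.6, those with RANKL 15.5 and 16.1, and those with both 16.9 and 18.9. PRDX1 without RANKL gave 1.36 times the control (log2 change 0.43, limma adjusted p = 0.00168), and RANKL with PRDX1 gave -0.55 (limma adjusted p = 2.51e-04), both under the fold threshold. The second passed it without PRDX1 + RANKL replicate 2, at -0.63. With RANKL, PRDX1 gave 0.17 (95% confidence interval 0.01 to 0.33, limma adjusted p = 0.0873). The antisense gene Arhgap27os1 overlaps its exons.

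**Figure D3:**
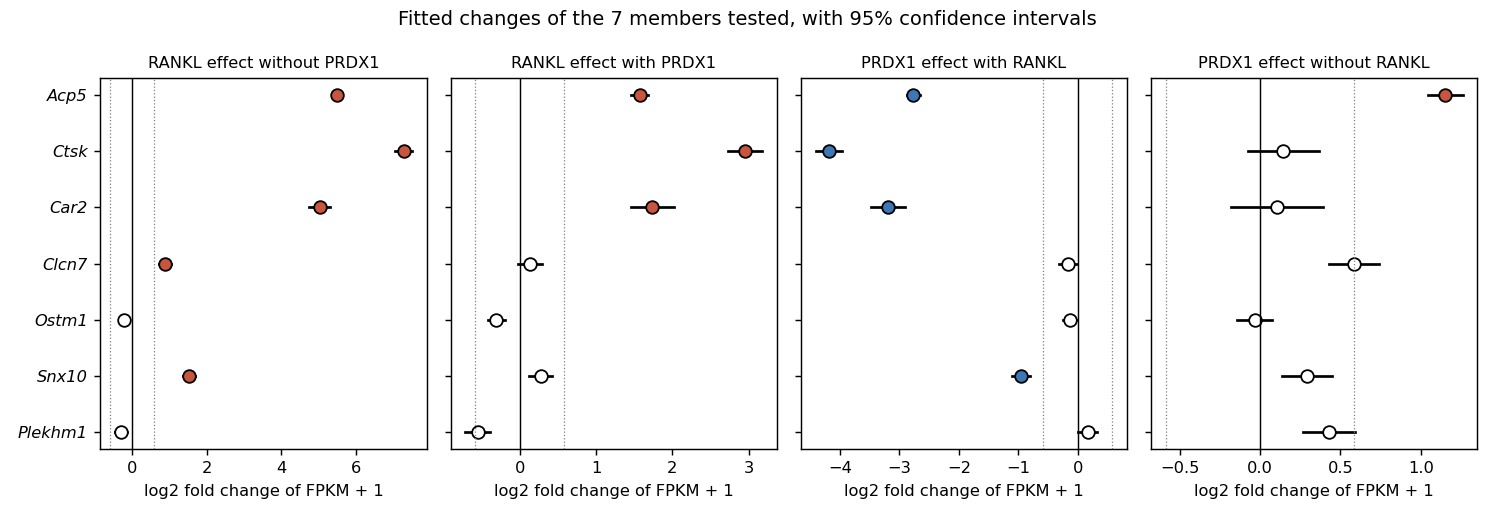
Fitted log2 fold changes of FPKM + 1 (horizontal axis, a separate scale in each panel) with 95% confidence intervals for the 7 members tested in 4 comparisons. Filled points passed both thresholds (red higher, blue lower), open points did not, and dotted lines mark a 1.5-fold change; Acp5 is the only filled point for PRDX1 without RANKL, at 1.15.

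Cells given both proteins were compared with the control to see what remained of the resorption programme. Of the 7 members tested, 4 were called higher and 0 lower, where 12.8% of all genes were called, 7.50% higher and 5.34% lower. Acp5 was 6.84-fold higher (log2 change 2.72 ± 0.05, limma adjusted p = 2.28e-10), Ctsk was 100.5-fold higher (66.6 to 197 over the library pairs), and Car2 was higher by a ratio of 165 with a counting interval of 45.5 to 1370, from 2 control reads. Their log2 changes on the FPKM + 1 scale, 3.10 ± 0.10 and 1.84 ± 0.13, are set by the pseudocount and reached 6.58 and 7.27 by voom, so they cannot be ranked against that of Acp5. The value of Clcn7 is given above, and without Ctsk and Car2 the count was 2 of 5. Snx10 gave 0.57 (limma adjusted p = 1.00e-04), under the fold required. It passed at 0.64 without no PRDX1 + no RANKL replicate 2 and at 0.61 without PRDX1 + RANKL replicate 2. Whether the PRDX1 effect differed with RANKL was tested by the interaction, for which 8.85% of all genes were called, 4.50% higher and 4.35% lower. Of the 7 members, 5 were called lower and 0 higher, and without Ctsk and Car2, which passed the filter only through RANKL, 3 of 5. Besides Acp5 and Clcn7 these were Ctsk (-4.33 ± 0.14), Car2 (-3.30 ± 0.18) and Snx10 (-1.25 ± 0.10). Ostm1 (-0.10, limma adjusted p = 0.358) and Plekhm1 (-0.26, limma adjusted p = 0.10) did not pass. These comparisons share their control libraries.

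The other genes of the resorption machinery gave the setting for the members. Of 35 genes listed by role, 31 were tested. RANKL without PRDX1 raised 16 and lowered 5, and PRDX1 with RANKL lowered 12 and raised 1, with median log2 changes of 0.69 and -0.24. The shares of all genes tested were 11.8% raised and 9.96% lowered by RANKL, and 4.17% lowered and 6.03% raised by PRDX1. Slc9b2 and Oscar passed the filter only through the groups given RANKL and so had to differ between groups with and without RANKL. Oscar, at 0.337 FPKM with both proteins, passed only through RANKL alone (10.1), so its fall by PRDX1 with RANKL was also fixed. Among the other 29 the counts were 14 raised and 5 lowered by RANKL (median 0.56), and 10 lowered and 1 raised by PRDX1 with RANKL (median -0.20). Over all 31, PRDX1 without RANKL raised 4 and lowered 1 (3.80% and 1.99% of all genes tested). RANKL with PRDX1 raised 7 and lowered 1 (4.52% and 3.98% of all genes), and 6 and 1 among the 29.

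Among 7 genes of acid secretion, RANKL alone raised 4: the sodium and proton exchanger Slc9b2, the proton pump subunit Atp6v0d2, the sugar phosphate transporter Slc37a2 and the anion exchanger Slc4a2. All 4 were lower with PRDX1 beside RANKL. Slc9b2 had mean FPKM of 0.0685 in the control, 0.121 with PRDX1, 57.8 with RANKL and 3.29 with both (log2 change by PRDX1 with RANKL -3.77). Atp6v0d2 had 6.99, 22.8, 177 and 26.4 in the same order, so PRDX1 raised it without RANKL (log2 change 1.57) and lowered it with RANKL (-2.69), as for Acp5. Its interaction was -4.26.

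Of the matrix proteases, Mmp9 had mean FPKM of 0.429, 1.03, 320 and 28.8 and Mmp14 0.893, 13.7, 72.5 and 33.6. RANKL raised both (log2 changes 7.81 and 5.28) and PRDX1 lowered both with RANKL (-3.43 and -1.09). Mmp14 had the largest rise by PRDX1 alone among the partner genes tested (2.96). Mmp9 gave 0.51 by PRDX1 alone and was not called, but passed at 0.62 without no PRDX1 + no RANKL replicate 2, at 1.12 with a pseudocount of 0.1 and at 1.26 by voom.

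In the attachment group of 6, RANKL raised the vitronectin receptor subunits Itgav and Itgb3, the kinase Src and cortactin (Cttn) and lowered the exchange factor Vav3 and the kinase Ptk2b. PRDX1 with RANKL lowered 3 of them, Itgb3 (-3.15), Src (-1.41) and Cttn (-1.09). Without RANKL, Itgb3 fell (-0.79) and Src rose (1.56), at mean FPKM of 1.88 to 0.662 and 0.748 to 4.16. With PRDX1 in both arms, RANKL raised Src by 1.56 and Itgb3 by 0.62, and Itgb3 was 0.58 and not called without PRDX1 + no RANKL replicate 2.

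Genes of vesicle traffic moved in both directions. Of 10 genes tested, RANKL raised 2 (Gnptab and Lrrk1) and lowered 3 (Lamp2, Rab27a and Lamp1), and PRDX1 with RANKL raised Lamp2 (0.65) and lowered Gnptab (-0.91), the enzyme that tags hydrolases for lysosomes. The median of the 10 was -0.06 for RANKL alone, against 0.69 over the 31. Among 6 receptors and factors tested, RANKL raised Oscar, Nfatc1, Mitf and the RANKL receptor gene Tnfrsf11a, and PRDX1 with RANKL lowered Oscar (-3.05), a costimulatory receptor, and Nfatc1 (-1.69), the transcription factor that drives the osteoclast programme. Nfatc1 had mean FPKM of 10.3, 7.70, 52.9 and 15.7. The calcitonin receptor's accessory genes Ramp1, Ramp2 and Ramp3 were listed but not tested.

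**Figure D4:**
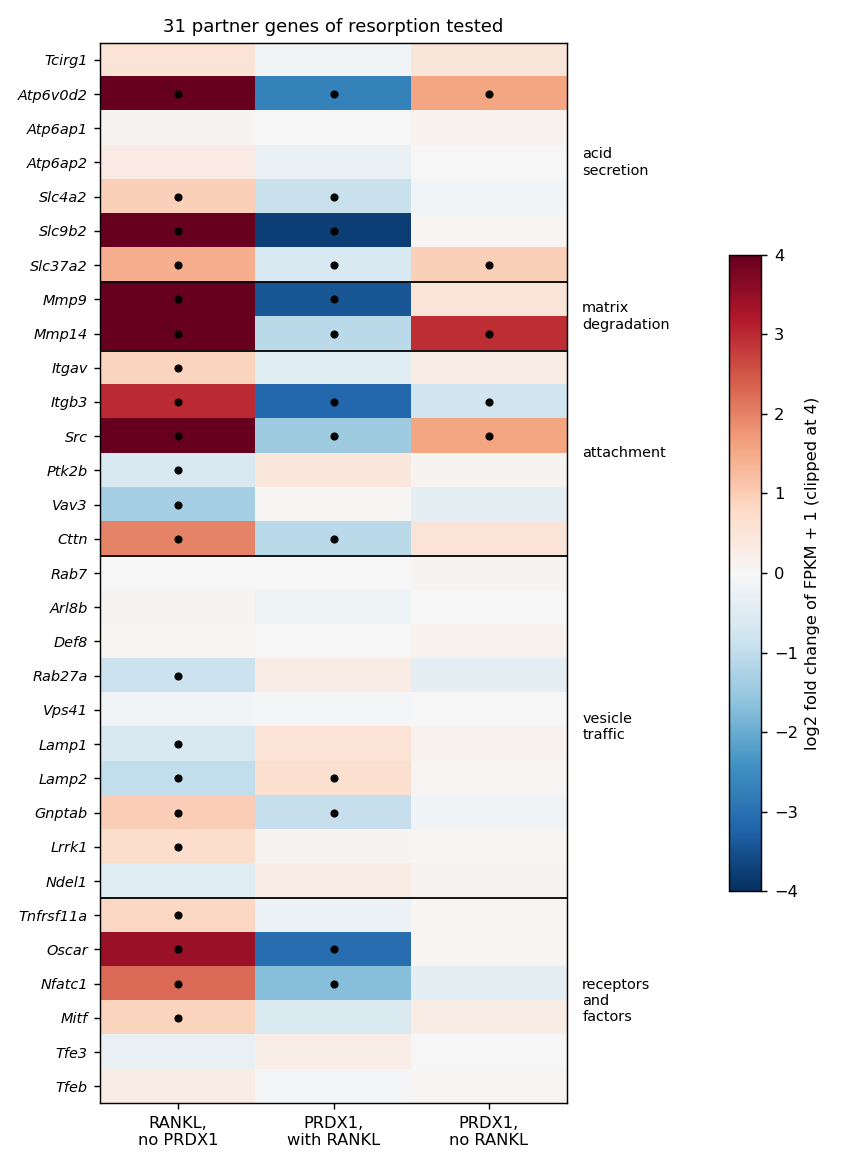
Log2 fold changes of FPKM + 1 (colour, clipped at 4) of the 31 partner genes tested, grouped by role, for RANKL without PRDX1, PRDX1 with RANKL and PRDX1 without RANKL; black dots mark genes past both thresholds. The acid secretion, matrix and attachment rows hold most of the dots.

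Relatives of the members by gene family were counted beside them. Of 61 genes listed, 43 were tested, and RANKL without PRDX1 raised 2 and lowered 7 of them (11.8% and 9.96% of all genes tested), while PRDX1 with RANKL raised 3 and lowered 0 (6.03% and 4.17% of all genes). The 28 sorting nexins tested beside Snx10 held 6 of the 7 that RANKL lowered and 0 that it raised, with Snx24 (-1.95), Snx30 (-1.41) and Snx2 (-1.35) the most changed. PRDX1 with RANKL raised Snx30 (0.92), Snx24 (0.81) and Snx32 (0.61). The call of Snx32 was lost without no PRDX1 + RANKL replicate 1 (0.56) or without PRDX1 + RANKL replicate 1 (0.57). The chloride exchanger Clcn5 fell with RANKL (-1.13). Calcrl, the receptor most like Calcr, rose with RANKL both without PRDX1 (1.16) and with it (1.03) and gave 0.04 by PRDX1 with RANKL, at mean FPKM of 12.6, 14.3, 29.3 and 30.1. Of the carbonic anhydrases tested, RANKL raised Car5b (0.67) and PRDX1 alone raised Car13 (0.75). Over the 43, PRDX1 alone raised 1 and lowered 1 (3.80% and 1.99% of all genes tested). The lowered gene was Snx25, at mean FPKM of 7.39 to 4.30. RANKL with PRDX1 raised 2 and lowered 3 (4.52% and 3.98% of all genes), with Snx24 among the lowered, from 28.2 to 12.0. None of the 4 acid phosphatases tested beside Acp5 was called by RANKL or PRDX1 singly, and Acp2 rose with both (0.76).

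The genes most like each member were found by the distance between their 4 group means of log2(FPKM + 1), each centred on its own mean, over all 11700 genes. Nearest to Car2 were Ocstamp (0.23), Slc9b2 (0.62) and Spns2 (0.87). Among the nearest 3 to Acp5 were Ocstamp (0.76) and Dmkn (1.05), and nearest to Ctsk were Mmp9 (0.93), Slc9b2 (1.30) and Ocstamp (1.87). Ocstamp, which encodes a membrane protein needed for osteoclasts to fuse, thus stood among the nearest 3 of all 3 enzyme genes, with mean FPKM of 0.166, 0.236, 35.9 and 3.95. The neighbours of the other members were different genes. The nearest 3 to Clcn7 included Fcrlb (0.05) and Manbal (0.08), and those to Ostm1 included Vps29 (0.04) and Snx22 (0.05). Snx10 lay nearest to Pkp2 (0.07), Klhl12 (0.08) and Zfp462 (0.14), and Plekhm1 to Tppp3 (0.08), Slc16a9 (0.08) and Cmc4 (0.09). With the pseudocount of 1, a gene of low FPKM can lie near a member without sharing its fold change. From control to RANKL alone, Snx10 went from 38.7 to 113 mean FPKM, Pkp2 from 0.096 to 2.06 and Zfp462 from 0.0235 to 1.96. Clcn7 went from 15.7 to 29.8 and Fcrlb from 0.211 to 1.21. Among the members themselves, Acp5 was nearest to Car2 (0.81), Snx10 to Clcn7 (0.71) and Plekhm1 to Ostm1 (0.42). A small distance is easier to reach for genes that vary little, so distances are comparable within a member and not between members.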

How the data were processed

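RNA was sequenced as 100 bp paired-end reads from 8 libraries, 2 in each of 4 groups. Per the labels the authors used HISAT2, HOMER and DESeq2 on mm10, with versions not given in the sources used here. Per the file header, reads were counted on the exons of RefSeq genes without regard to strand, 1 transcript was kept per gene, and the deposited values are FPKM for 25124 genes. There were 0 other columns of per-sample values. FPKM multiplied by transcript length was a whole multiple of the value of 1 read for 100% of the low values of shorter genes checked (tolerance 0.1 of a read), which gave the reads per gene and library totals of 27284430 to 46168235. FPKM are not counts, so log2(FPKM + 1) was fitted with limma 3.58.1 in R 4.3.3, with 4 groups and an intensity trend (4 residual degrees of freedom). Genes with a mean of at least 0.5 FPKM were kept, and p-values were adjusted by Benjamini-Hochberg over all 11700. The fold threshold of 1.5 and the adjusted p of 0.05 followed the study. There were 5 pairwise comparisons and the interaction. Ratios of few reads carry exact 95% intervals, and the floor was 3 reads. The fit was tested on simulated data.

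The members and the lists of partners, relatives and markers were chosen with earlier results of these data known. All members were described. Genes named from each list were drawn from the up to 3 called genes of largest change per comparison, or from all called genes where a role held 5 or fewer. Not every such gene was given in every comparison. The 3 genes nearest to each member were also named, except for 3 that are not reported here. Lipid, cytokine and other parts of the data were not used here. Alternatives changed the pseudocount, filter, scaling, trend, replicate block and libraries. A voom fit on the recovered reads was chosen after seeing the data. Reads of the 2 libraries in each group differed beyond counting error (chi-square per degree of freedom 4.71 to 9.58), so none was a duplicate. Figures were drawn with matplotlib.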

Additional observations from a re-analysis of the deposited data

Results flagged for a closer look

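The effect of PRDX1 differed between cells with and without RANKL for 5 of the 7 members tested, by the interaction term of the limma fit, which called 8.85% of all genes tested (4.35% lower). Of the 5, Ctsk and Car2 passed the filter on low values only through the groups given RANKL. The difference, as the log2 effect with RANKL minus that without RANKL, was -4.33 for Ctsk, -3.91 for Acp5, -3.30 for Car2, -1.25 for Snx10 and -0.75 for Clcn7. The order of the first 3 depends on the scale, since voom on the reads gave -6.21 for Car2, -5.38 for Ctsk and -3.96 for Acp5. For Acp5 the effects had opposite signs and both were called, 1.15 without RANKL and -2.76 with it. For Clcn7 neither effect was called singly, at 0.58 and -0.16.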

How the results depend on the processing

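Over 16 alternative settings no called change of a member reversed direction. For PRDX1 without RANKL, 2 changes that were not called crossed 0: Ctsk (0.15) was -0.0010 without PRDX1 + no RANKL replicate 2, and Ostm1 (-0.03) was 0.0032 with the upper quartile. Of the member values under these settings, 659 kept their side of the thresholds and 13 passed under the alternative only. The count of members called for PRDX1 without RANKL, 1 as reported, was 3 with a pseudocount of 0.1 (Acp5, Clcn7 and Car2), 2 with quantile normalization, 2 with libraries scaled to one upper quartile, 3 by voom on the recovered reads, and 1 to 2 over leaving out each library. Clcn7 was 0.61 with the pseudocount of 0.1, 0.61 with quantile normalization, 0.62 with the upper quartile and 0.61 by voom, and Car2 was 0.74 with that pseudocount and 2.61 by voom. For Car2, with 2 and 0 reads in the control libraries, the value depends on the pseudocount. For Clcn7, which lay just under the fold threshold, the cause was not tested. The pseudocount of 1 also shrank the interactions of Car2 (-4.30 with 0.1, -6.21 by voom) and Ctsk (-4.96 and -5.38). Plekhm1 passed for RANKL with PRDX1 at -0.62 with quantile normalization and -0.60 with the upper quartile. Over all genes tested, the split of calls for RANKL without PRDX1 depended on the scaling. It was 1383 higher and 1165 lower as reported, 1088 and 1322 with quantile normalization, and 1153 and 1302 with the upper quartile.

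The replicate numbers were not used to pair the samples. Deviations of same-numbered libraries correlated by 0.00847 to 0.0965, and the file header lists library names whose numbers differ from those of the labels. A weak correlation cannot tell whether same-numbered libraries shared a mouse or culture. With the replicate number as a block, the members called were 5, 3, 4, 1, 4 and 5 in the order RANKL without PRDX1, RANKL with PRDX1, PRDX1 with RANKL, PRDX1 without RANKL, both against control and interaction, the same counts as without it.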
